A study of Homo sapiens with 6 samples.

Results

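Zinc finger genes of chromosome 19 were taken from the deposited count table as all protein-coding rows on that chromosome whose symbol begins with ZNF, ZFP or ZSCAN. The rule used no expression value and found 250 genes among 21494 rows, of which 240 were named ZNF, 5 ZFP and 5 ZSCAN. No row of that table summed to fewer than 10 counts over the 6 samples. Genes below that sum, if they had been dropped, could not become members or enter a share of all rows. RNA-seq had been carried out on 3 Control sh samples, which carried a control shRNA, and on 3 VprBP sh samples, which carried an shRNA against VprBP, the substrate receptor and histone H2A kinase encoded by DCAF1. The labels name the cells G361, an established human melanoma line, and call all 6 samples melanoma with wild-type genotype, but give LD611 as their source. Per the methods of the study, 1 hairpin against the VprBP coding region was delivered by lentivirus and the infected cells were selected with puromycin, and no source used here says whether the 3 samples of a group were separate cultures, so that the p-values measure the spread between these samples, which may be technical.

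Most zinc finger genes of chromosome 19 encode KRAB zinc finger proteins, in which an array of C2H2 fingers reads DNA and a KRAB domain recruits the corepressor TRIM28 (KAP1) with the histone H3K9 methyltransferase SETDB1 and HP1 proteins. They are known above all for silencing retroelements, and they lie in tandem clusters that arose by repeated duplication. SCAN domains, in the ZSCAN genes, pair such proteins with each other. The name does not fix the structure: ZFP36, for example, is an RNA-binding protein with CCCH fingers that destabilizes mRNAs.

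The regions upstream of 6 of these genes are shown because they stand for the main patterns described in the following paragraphs. They cover the 250 bases before the RefSeq start (build GRCh38.p14), on the strand of the gene and 5′ to 3′, with each CG dinucleotide in capitals. The first 3 belong to genes without a count in any Control sh sample and with 225 counts or more in each VprBP sh sample, namely ZNF677 (chr19:53254824-53255073, minus strand), ZNF835 (chr19:56671758-56672007, minus strand) and ZNF135 (chr19:58058989-58059238, plus strand).
ZNF677: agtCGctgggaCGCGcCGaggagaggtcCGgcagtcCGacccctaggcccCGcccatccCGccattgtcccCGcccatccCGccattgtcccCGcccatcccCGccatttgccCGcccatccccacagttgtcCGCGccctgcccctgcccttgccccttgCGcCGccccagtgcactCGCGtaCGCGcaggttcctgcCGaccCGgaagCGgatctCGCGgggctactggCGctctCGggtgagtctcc
ZNF835: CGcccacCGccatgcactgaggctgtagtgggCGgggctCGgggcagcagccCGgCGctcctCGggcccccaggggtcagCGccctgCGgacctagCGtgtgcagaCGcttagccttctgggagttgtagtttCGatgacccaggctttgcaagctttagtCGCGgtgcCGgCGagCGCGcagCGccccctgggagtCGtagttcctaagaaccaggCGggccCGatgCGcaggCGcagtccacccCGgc
ZNF135: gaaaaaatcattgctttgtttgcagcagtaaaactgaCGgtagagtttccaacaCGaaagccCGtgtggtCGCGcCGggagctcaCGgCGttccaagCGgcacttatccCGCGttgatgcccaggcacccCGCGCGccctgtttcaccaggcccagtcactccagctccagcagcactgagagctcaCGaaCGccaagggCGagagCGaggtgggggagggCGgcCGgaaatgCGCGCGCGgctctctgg
ZSCAN18 (chr19:58118405-58118654, minus strand) had the highest level of all members in VprBP sh, ZNF671 (chr19:57727625-57727874, minus strand) almost lost its counts there, and ZNF146 (chr19:36214856-36215105, plus strand) had the highest level in Control sh and was not called different.
ZSCAN18: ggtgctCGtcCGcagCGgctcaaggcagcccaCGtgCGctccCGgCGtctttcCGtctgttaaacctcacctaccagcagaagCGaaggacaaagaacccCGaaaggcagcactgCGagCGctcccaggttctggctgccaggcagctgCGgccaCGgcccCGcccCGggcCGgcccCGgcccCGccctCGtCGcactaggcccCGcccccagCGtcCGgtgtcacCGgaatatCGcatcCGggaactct
ZNF671: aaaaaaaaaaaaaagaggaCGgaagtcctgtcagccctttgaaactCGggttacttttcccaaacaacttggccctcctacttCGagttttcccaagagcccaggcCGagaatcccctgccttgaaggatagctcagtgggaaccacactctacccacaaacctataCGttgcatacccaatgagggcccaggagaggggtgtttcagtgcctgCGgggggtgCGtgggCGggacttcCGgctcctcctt
ZNF146: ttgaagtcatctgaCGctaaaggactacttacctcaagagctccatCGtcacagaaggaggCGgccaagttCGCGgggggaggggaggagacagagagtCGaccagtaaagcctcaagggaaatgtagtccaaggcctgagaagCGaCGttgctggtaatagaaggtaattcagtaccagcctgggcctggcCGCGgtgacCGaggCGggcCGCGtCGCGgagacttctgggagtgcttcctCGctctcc
These windows held 28 CG dinucleotides at ZNF677, 25 at ZNF835, 24 at ZNF135, 27 at ZSCAN18, 17 at ZNF146 and 9 at ZNF671. A RefSeq window was matched by symbol for 220 of the 250 members, and in 167 of them the RefSeq start lay within 100 bases of the 5′ end given in the count table. At ZNF146 it lay 504 bases downstream of that end.

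DCAF1 itself was checked first. It had 688, 893 and 884 counts in Control sh against 681, 488 and 628 in VprBP sh. Its level, in counts scaled to the upper quartile of each sample (normalized counts), was 860 ± 89.4 (SD, n = 3) in Control sh against 577 ± 153 (n = 3) in VprBP sh, a log2 fold change of −0.58 (SE 0.17, adjusted p = 0.0125 by the quasi-likelihood test of edgeR with Benjamini-Hochberg adjustment). The decrease was smaller than 2-fold, and with scaling by library size alone it was −0.37 (adjusted p = 0.0851).

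Library totals ran from 18195949 to 26883948 counts, and replicate 1 of each group stood somewhat apart from replicates 2 and 3. Across all genes, the groups stood far apart, with 7778 of 16756 tested genes, or 46.4%, called different between VprBP sh and Control sh at an adjusted p under 0.05 and a fold change over 2. Markers of the labelled cell type were low: MLANA and TYRP1, which serve melanosomes, could not be tested for lack of counts, and MITF had 170 ± 13.8 normalized counts in Control sh against 234 ± 30.3 in VprBP sh. TYR, DCT and SOX10 had no row in the deposited counts. The 4 of 7 listed melanocyte markers with a row summed to 184 to 210 counts per Control sh sample and 235 to 367 per VprBP sh sample. The 9 of 11 listed urothelial markers with a row (KRT20 and UPK3A had none) summed to 92391 to 125093 counts in Control sh against 22488 to 37153 in VprBP sh. Of the 8 tested, 5 were called lower (KRT5, KRT13, UPK1B, UPK2 and TP63) and 2 higher (GATA3 and PPARG). The epithelial keratin KRT5 went from 64338 ± 7836 to 3453 ± 1341 normalized counts, the basal epithelial factor TP63 from 8840 ± 1005 to 9.35 ± 0.969, and the luminal factor GATA3 from 3.04 ± 4.36 to 1513 ± 203. These shifts moved with the same contrast as every value that follows, and their part in those values was not tested. In bulk RNA, fewer cells of a type, less RNA per cell and a different cell population in each group cannot be told apart. Correlations of log2 normalized counts ran from 0.985 to 0.994 within groups and from 0.653 to 0.661 between groups. Whether both groups held the same cell population was not tested, and such a difference would coincide with the shRNA in every comparison.

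Zinc finger genes of chromosome 19 were mostly higher in VprBP sh. Of the 247 members tested, 112 were called higher, 7 were called lower and 128 were not called, whereas 24.5% of all genes tested were called higher and 22.0% lower by the same rule. This is 45.3% of the tested members higher and 2.83% lower. The log2 fold change was above 0 for 217 members and below 0 for 30, with a median of 0.91 (interquartile range 0.29 to 1.41) beside 0.08 for all genes tested. At an adjusted p under 0.05 with any fold change, 174 members were higher and 15 lower, against 40.4% and 36.0% of all genes. Without replicate 1 of both groups, 106 members were called higher and 8 lower, with a median of 0.87. In 180 of the 250 members, all 3 VprBP sh samples lay above all 3 Control sh samples, in 20 they lay below and in 50 the groups overlapped, where the background over all 21494 rows was 37.4% above and 34.6% below. Other scalings moved the median of all genes from 0.08 to 0.29 (library size alone) or to −0.04 (DESeq2), and members moved with it, so that the median of the members exceeded that of all genes by 0.82 in each of these fits. Because a scaling shifts every gene by nearly the same amount, it could hardly change this difference. Over the other fits the difference ran from 0.72 (at least 10 counts in every sample) to 0.84 (without Control sh replicate 1).

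The shift was broad rather than due to a few genes. Of the tested members, 80 had a log2 fold change between 1 and 2, 105 between 0 and 1, 14 between 2 and 3 and 18 above 3, while 23 lay between −1 and 0, 3 between −2 and −1 and 4 below −2. The share of all counts that fell on the 250 genes was 0.224%, 0.222% and 0.224% in the 3 Control sh samples and 0.435%, 0.418% and 0.414% in the 3 VprBP sh samples, without overlap. The median member had 131 normalized counts in Control sh against 258 in VprBP sh. Per kilobase of exon, the median level of the members was 24.7 normalized counts in Control sh against 45.4 in VprBP sh, beside 84.9 and 88.1 for all protein-coding genes. There were 98 members under 100 normalized counts in Control sh against 42 in VprBP sh, and 4 members at 1000 or more in Control sh against 9 in VprBP sh. Among the 116 members whose average over all samples was 200 normalized counts or more, 39 were called higher and 2 lower. Among the 134 below 200, of which 131 were tested, 73 were called higher and 5 lower.

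**Figure D1:**
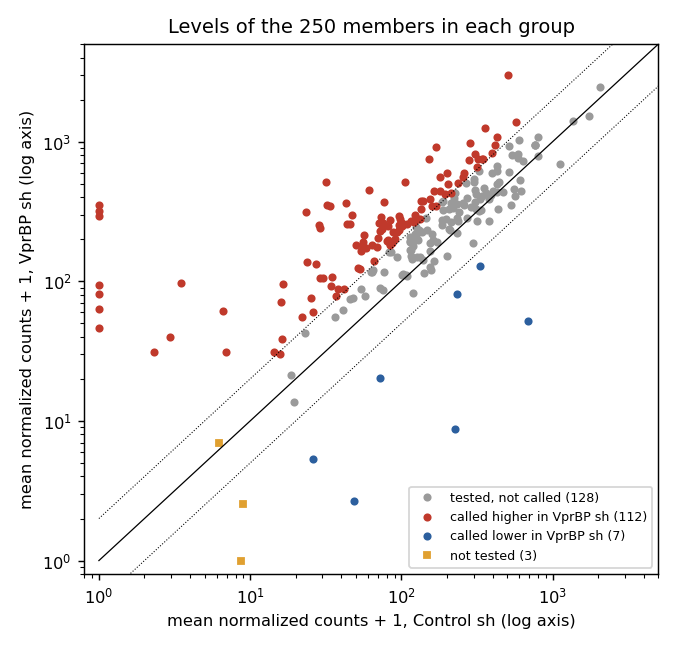
Mean normalized counts plus 1 of each of the 250 members in Control sh (horizontal, log axis) and VprBP sh (vertical, log axis), with the line of equality and dotted lines at 2-fold. The 112 members called higher lie above the upper dotted line except ZNF491, which lies just under it once 1 is added to its means, and the 7 called lower lie below the lower one.

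The members were then set beside related genes. Of 262 tested zinc finger genes named by the same prefixes on other chromosomes, 80 (30.5%) were called higher and 25 (9.54%) lower, and their median log2 fold change was 0.40. Of 801 tested protein-coding genes of chromosome 19 without these names, 241 (30.1%) were called higher and 116 (14.5%) lower, with a median of 0.33. Within the zinc finger clusters lie 80 of these 801 genes, of which 19 (23.8%) were called higher and 13 (16.3%) lower, with a median of 0.25. No test was made between these classes, so the differences are a description. By strand, 57 of 134 tested members on the plus strand and 55 of 113 on the minus strand were called higher. Because zinc finger genes resemble each other, reads can be split among them. Of the values of the members, 17.4% were not whole within 0.1, against 19.2% over all rows. In 172 members every estimated count was whole within 0.1, and of the 169 of these that were tested 78 were called higher and 5 lower. A whole value does not by itself show that no read was shared.

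**Figure D2:**
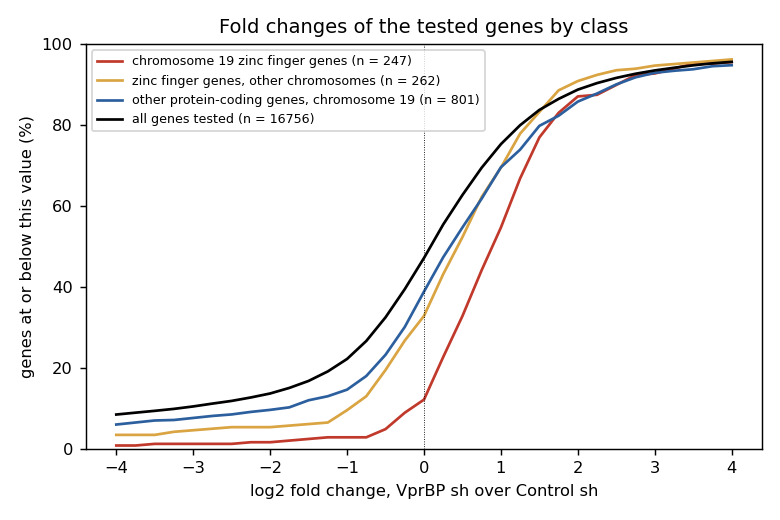
Share of tested genes (vertical, %) at or below each log2 fold change of VprBP sh over Control sh (horizontal) for 247 chromosome 19 zinc finger genes, 262 zinc finger genes of other chromosomes, 801 other protein-coding genes of chromosome 19 and all 16756 genes tested. The curve of the members runs below the other 3 curves around 0, since 30 of the 247 members had a value below 0.

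Several members went from no counts to a clear level. No Control sh sample had more than 3 counts, while VprBP sh had more, for 9 members, and the reverse for 3 members. Over all rows, 8.55% met the first condition and 10.9% the second, so that each was met by a smaller share of the 250 members than of all rows. All rows include noncoding genes, whereas every member is protein-coding. Of 15325 protein-coding genes, 712 met the first condition and 1206 the second, so that the members lay closer to these in the first. With the further demand that the other group reach 100 normalized counts on average, the first condition was met by 3 members (background 0.730%) and the second by none of the 250 (background 1.89%). The number 3 is too small to be read as a difference from the background. ZNF677, a KRAB zinc finger gene at 53235381 to 53254898 on the minus strand (hg38, as are all gene positions given here), had 0 counts in each Control sh sample and 282, 284 and 352 in VprBP sh. That is at least 91.8-fold higher against a floor of 3 counts per sample. ZNF835, at 56661980 to 56671783 on the minus strand, had 0 counts in each Control sh sample and 225, 343 and 459 in VprBP sh, at least 100.1-fold higher. ZNF135, at 58059239 to 58086310 on the plus strand, had 0 counts in each Control sh sample and 317, 323 and 495 in VprBP sh, at least 112-fold higher. These 3 genes were chosen for their absence in Control sh, so that no test of them is given, although their calls count among the 112 members called higher. In a table without rows under 10 counts, genes without a count in Control sh stood there through their VprBP sh counts alone. Exons of ZNF135 share 2091 bases with ZSCAN18 on the opposite strand, and no source used here says whether reads were counted by strand, so reads of the overlap cannot be told apart.

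The other 6 members of this kind had lower levels. ZSCAN1, which lies just upstream of ZNF135 at 58034025 to 58054631, had 0 counts in each Control sh sample and 55, 80 and 130 in VprBP sh, at least 25.5-fold higher. ZNF492, ZNF99 and ZNF730 lie within the cluster near the centromere, between 22634324 and 23147221. ZNF492 had 0 counts in each Control sh sample and 100, 86 and 108 in VprBP sh (at least 29.6-fold higher). ZNF730 had 0 against 70, 58 and 66 (at least 19.8-fold) and ZNF99 had 0 against 40, 54 and 49 (at least 14.4-fold). These rises stand in all 3 VprBP sh samples of each gene. ZNF578 had 3, 2 and 2 counts in Control sh against 97, 103 and 100 in VprBP sh, a ratio of 38.5 (exact 95% counting interval 18.4 to 96.5). ZNF781 had 0, 1 and 3 counts in Control sh against 25, 35 and 36 in VprBP sh, a ratio of 21.5 (8.14 to 80.6). Floors and intervals cover counting error only, and do not allow for these genes having been picked by their low counts in Control sh.

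The upstream windows of these members had a higher median number of CG than those of the other members, but not each window was richer. ZNF677, ZNF835, ZNF135 and ZSCAN1 had 28, 25, 24 and 33. ZNF578, ZNF492 and ZNF730 had 16, 13 and 12, at or below the median of all members with a window. Windows of other members called higher reached 35, and those of members not called 31. The median was 24 CG dinucleotides in 250 bases for the 7 of the 9 members with a RefSeq window (range 12 to 33), 14 for 91 other members called higher, 17 for 115 members not called, 16.5 for 4 members called lower and 11 for all 35116 RefSeq windows. The median for all 220 members with a window was 16. These medians are a description of few windows and were not tested.

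Among members that averaged 100 or more normalized counts in their higher group, increases were largest, after ZNF135, ZNF835 and ZNF677, in ZNF793, ZNF569, ZNF43, ZNF570, ZNF382, ZNF837 and ZNF667. ZNF793 had 35.6, 25.8 and 31.4 normalized counts in Control sh against 569, 494 and 477 in VprBP sh (log2 fold change 4.06, SE 0.17, adjusted p = 3.02e-08 by edgeR). Its neighbours ZNF569 and ZNF570, which share 218 exonic bases on opposite strands, rose as well. ZNF569 had 22.9, 22.6 and 21.6 normalized counts in Control sh against 421, 246 and 264 in VprBP sh (log2 fold change 3.78, SE 0.27). ZNF570 had 29.8, 31.2 and 36.6 in Control sh against 420, 320 and 286 in VprBP sh (3.38, SE 0.21). In both genes VprBP sh replicate 1 was the highest sample, and the groups were far apart.

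ZNF43, on the minus strand at 21804946 to 21852125, had 39.0, 24.8 and 30.03 normalized counts in Control sh against 386, 329 and 342 in VprBP sh (log2 fold change 3.49, SE 0.19). ZNF382, a KRAB repressor described as a tumor suppressor that is silenced in cancers, had 26.4, 21.5 and 34.7 in Control sh against 284, 240 and 234 in VprBP sh (3.18, SE 0.21). ZNF667 had 26.4, 26.9 and 30.03 in Control sh against 227, 249 and 241 in VprBP sh (3.10, SE 0.17). ZNF837 was the most uneven of these genes. It had 49.3, 36.6 and 40.4 normalized counts in Control sh against 220, 468 and 408 in VprBP sh, with replicate 1 lowest (3.12, SE 0.30). The adjusted p-values of ZNF569, ZNF43, ZNF570, ZNF382, ZNF837 and ZNF667 lay between 1.7e-07 and 7.99e-06.

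**Figure D3:**
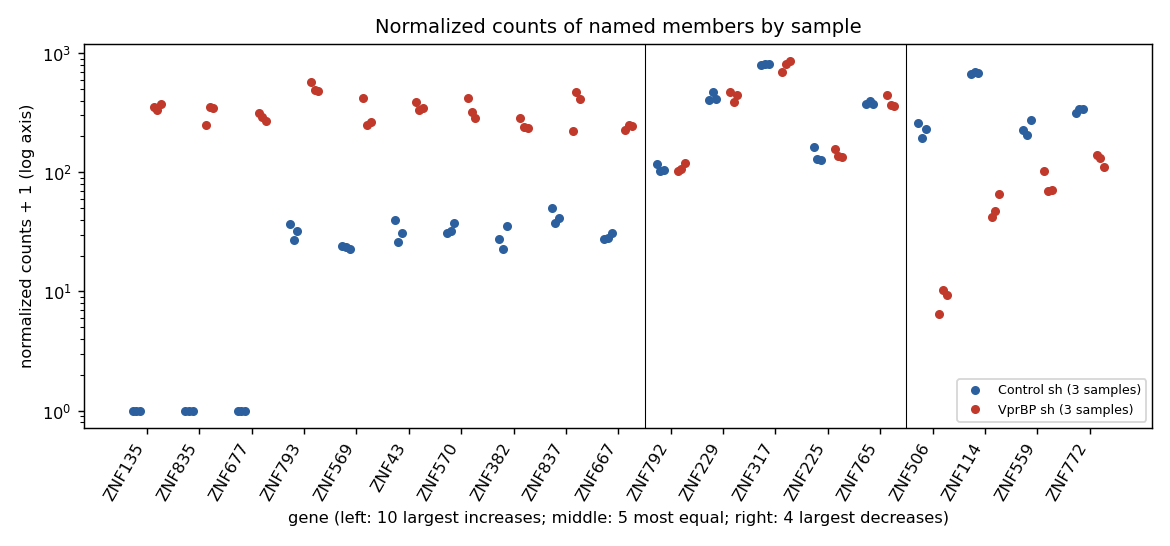
Normalized counts plus 1 (vertical, log axis) in each of the 3 Control sh (blue) and 3 VprBP sh (red) samples for the 10 members with the largest increase, the 5 most equal and the 4 with the largest decrease, each averaging 100 or more in its higher group. ZNF135, ZNF835 and ZNF677 sit at 0 counts in Control sh, and the groups overlap in each of the 5 middle genes.

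All 5 ZSCAN members were called higher. ZSCAN18, at 58083838 to 58118427 on the minus strand, had 511, 522 and 488 normalized counts in Control sh against 2483, 3326 and 3221 in VprBP sh, a log2 fold change of 2.57 (SE 0.12, adjusted p = 7.33e-08 by edgeR), and became the member with the highest level. ZSCAN4, known from early embryos and telomere maintenance, had 14.9, 9.69 and 20.6 in Control sh against 80.7, 62.7 and 68.3 in VprBP sh (2.20, SE 0.31). ZSCAN5A and ZSCAN22 had log2 fold changes of 1.29 (SE 0.21) and 1.14 (SE 0.23). Of the 5 ZFP members, all passed an adjusted p under 0.05 with higher values in VprBP sh, and ZFP28 and ZFP30 passed the 2-fold limit as well. ZFP28 had 32.1, 24.8 and 31.0 normalized counts in Control sh against 129, 95.7 and 86.5 in VprBP sh (1.82, SE 0.25). ZFP36, the CCCH protein, had 802 ± 172 normalized counts in Control sh against 1081 ± 190 in VprBP sh, and its samples overlapped (0.43, SE 0.17, adjusted p = 0.041).

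Only 7 members were called lower, and no pair of them stood next to each other along the chromosome. ZNF506, at 19785839 to 19821751 on the minus strand, had 257, 194 and 229 normalized counts in Control sh against 5.53, 9.26 and 8.35 in VprBP sh (log2 fold change −4.84, SE 0.25, adjusted p = 1.26e-07 by edgeR). ZNF114, at 48270081 to 48287608 on the plus strand, had 671, 695 and 681 in Control sh against 40.9, 46.3 and 64.5 in VprBP sh (−3.73, SE 0.17, adjusted p = 4.87e-08). In both genes every VprBP sh sample lay far below every Control sh sample. ZNF559 had 224, 204 and 272 normalized counts in Control sh against 101, 68.9 and 70.2 in VprBP sh (−1.56, SE 0.20). Its exons share 875 bases with those of the readthrough row ZNF559-ZNF177, which had 18.4 ± 6.22 in Control sh against 12.6 ± 2.64 in VprBP sh and was not called. ZNF772 had 316, 338 and 338 in Control sh against 138, 132 and 110 in VprBP sh (−1.39, SE 0.14).

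The other 3 members called lower had low counts. ZNF671, whose promoter is known as a site of DNA methylation in urothelial and other cancers, had 48, 44 and 42 counts in Control sh against 1, 3 and 1 in VprBP sh, 29.9 times higher in Control sh (exact 95% counting interval 12.5 to 93.5). That interval covers counting error only. ZNF546 had 25.2 ± 2.45 normalized counts in Control sh against 4.34 ± 0.933 in VprBP sh. ZNF132 had 70.9 ± 13.6 in Control sh against 19.4 ± 4.28 in VprBP sh. The 3 members left untested were ZNF556, with 8, 5 and 9 counts in Control sh against 0 in each VprBP sh sample, ZNF534, with 4, 11 and 8 against 0, 3 and 2, and ZNF154, with 9, 5 and 0 against 5, 6 and 8.

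Members with well-known roles, chosen here after their values were seen, ranged from a small decrease to about 3-fold increases. ZNF91 and ZNF93 are repressors of SVA and LINE-1 retroelements. ZNF91 had 407, 312 and 294 normalized counts in Control sh against 832, 706 and 724 in VprBP sh (log2 fold change 1.16, SE 0.14). ZNF93 had 162, 154 and 188 in Control sh against 400, 310 and 323 in VprBP sh (1.03, SE 0.15). ZNF568, whose mouse ortholog represses a placental Igf2 transcript, had 95.7 ± 21.1 in Control sh against 293 ± 70.3 in VprBP sh (1.60, SE 0.22). ZNF274, which recruits SETDB1 to the 3′ ends of zinc finger genes, had 601, 580 and 616 in Control sh against 986, 1096 and 1003 in VprBP sh (0.78, SE 0.09, below 2-fold). ZNF473, a factor in histone pre-mRNA processing, had 302 ± 47.3 in Control sh against 536 ± 25.4 in VprBP sh (0.82, SE 0.13). ZNF420, a KRAB protein that restrains p53, had 131 ± 31.0 and 223 ± 21.1 (0.78, SE 0.19). ZNF350 (ZBRK1), a partner of BRCA1, had 152 ± 17.5 and 188 ± 11.1 (0.30, SE 0.15, adjusted p = 0.089 by edgeR). ZNF224 went the other way without reaching 2-fold, at 562 ± 22.6 and 407 ± 22.2 (−0.47, SE 0.10).

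The 5 members nearest to no difference, among those that averaged 100 or more normalized counts, were ZNF792, ZNF229, ZNF317, ZNF225 and ZNF765. ZNF792 had 117, 102 and 103 normalized counts in Control sh against 102, 105 and 119 in VprBP sh. ZNF317 had 792, 803 and 816 in Control sh against 688, 815 and 850 in VprBP sh. The log2 fold changes of the 5 genes lay between −0.03 and 0.04 with SEs between 0.11 and 0.17.

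Along the chromosome, members with starts less than 1 Mb apart formed 9 clusters of at least 5 genes, which held 240 of the 250 members. They differed in how many of their members were called higher, where 24.5% of all genes tested were called higher and 22.0% lower. Cluster 3 (11.48 to 12.64 Mb, from ZNF653 to ZNF791) had 21 of 26 members called higher and none of the 26 lower, the median log2 fold change being 1.34. Cluster 5 (34.68 to 34.96 Mb, from ZNF302 to ZNF792) had 4 of 5 higher, with a median of 1.61, and its remaining member was ZNF792. Cluster 6 (36.18 to 37.82 Mb, from ZNF565 to ZNF573) had 16 of 30 higher (median 1.08), cluster 4 (19.67 to 24.13 Mb, from ZNF101 to ZNF254) had 16 of 31 higher and 1 lower (1.01), and cluster 9 (55.48 to 58.48 Mb, from ZNF628 to ZNF446), at the end of the long arm, had 32 of 64 tested members higher and 3 lower (1.03).

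The remaining clusters had fewer calls. Of their tested members, 29.2% were called higher in cluster 7, 31.6% in cluster 8 and 20% in cluster 2, near the 24.5% of all genes tested. The share called lower was 0% in clusters 7 and 8 and 6.67% in cluster 2, below the 22.0% of all genes tested. The log2 fold change was above 0 for 22 of 24 members of cluster 7 and 32 of 38 tested members of cluster 8. Cluster 7 (43.53 to 45.08 Mb) had 7 of 24 members higher, the median log2 fold change being 0.82, and cluster 8 (51.57 to 53.58 Mb) had 12 of 38 tested members higher with a median of 0.30. Cluster 2 (7.07 to 9.79 Mb) had 3 of 15 higher and 1 lower with a median of 0.13, and 7 of its 15 members had values below 0. Cluster 1 (2.82 to 2.94 Mb) had no call among its 4 tested members (median 0.38), of which 1 had an adjusted p under 0.05. The 10 members outside clusters had 1 call higher, ZNF333, and 2 lower, ZNF546 and ZNF114, with a median of 0.24.

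**Figure D4:**
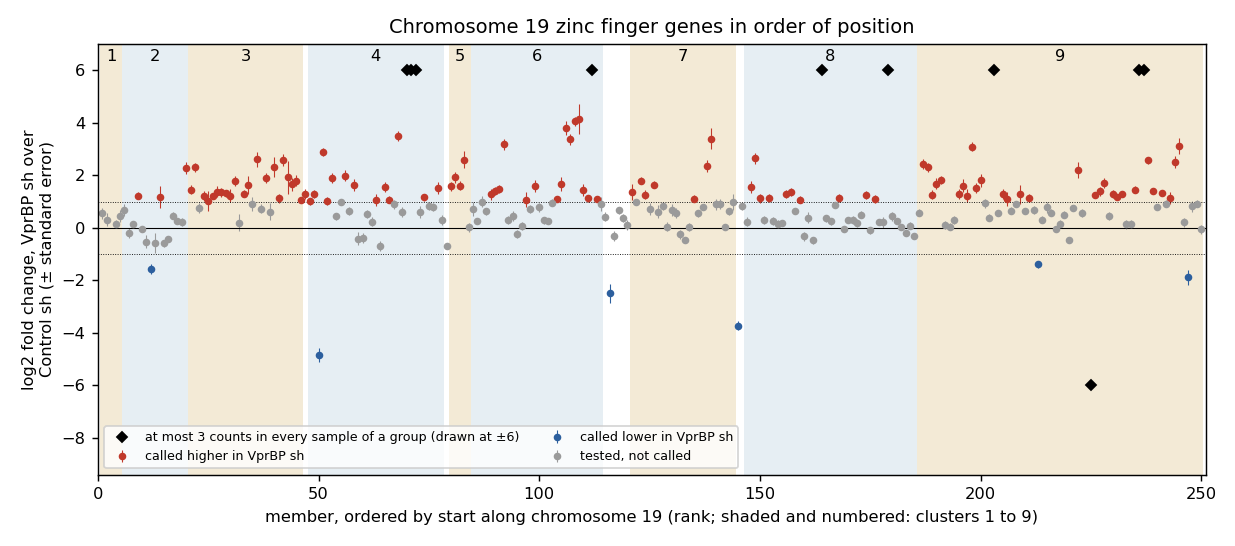
Log2 fold change of VprBP sh over Control sh with its standard error (vertical) for the 247 tested members in the order of their starts on chromosome 19 (horizontal, rank), with the 9 clusters shaded and numbered, dotted lines at 2-fold, and members with at most 3 counts in every sample of a group drawn as diamonds at a fixed height. In cluster 3, 21 of 26 members were called higher, cluster 2 is centred near 0, and the 7 members called lower are scattered singly.

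Neighbouring members were often called alike, although no test of such runs was made. With 112 of 247 tested members called higher and 128 not called, like calls side by side would be frequent in any order. In order of start, 10 consecutive members from ZNF442 to ZNF14 were called higher, with log2 fold changes from 1.01 to 2.59, as were 10 from ZNF875 to ZNF607, with values from 1.08 to 4.33. The latter run holds ZNF569, ZNF570, ZNF793, ZNF540, ZFP30 and ZNF781. The run from ZNF442 to ZNF14 is consecutive in rank only and is not one block of close genes. It passes from cluster 3, which ends at 12.64 Mb, over ZNF333 at 14.69 Mb, outside clusters, into cluster 4, which begins at 19.67 Mb. In it, ZNF709, ZNF564 and ZNF490 share 76.6%, 65.9% and 51.1% of their exonic bases with overlapping protein-coding genes on the same strand. A run of 8 members from ZNF441 to ZNF433, 6 from ZSCAN5A to ZFP28 and 5 from ZNF579 to ZNF580 were called higher as well. In the run from ZNF441 to ZNF433, ZNF700 and ZNF763 share 17.4% and 44.5% of their exonic bases with the same protein-coding gene on their strand. In the run from ZNF875 to ZNF607, ZFP30 and ZNF607 share 1.27% and 12.6% with another such gene. The longest runs without a call held 8 members each, from ZNF221 to ZNF225 in cluster 7 and from ZNF419 to ZNF211 in cluster 9. In the run from ZNF579 to ZNF580 each gene was lowest in replicate 1 among the VprBP sh samples: ZNF579 had 679, 1054 and 1009 normalized counts there, after 150.3, 194 and 161 in Control sh.

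The summed normalized counts of cluster 3 were 2401, 2106 and 2215 in Control sh against 5955, 5734 and 5925 in VprBP sh, a ratio of means of 2.62. Those of cluster 9 were 14430, 14234 and 14081 in Control sh against 25891, 29673 and 29404 in VprBP sh, a ratio of 1.99. The ratio was 2.79 in cluster 5, 1.81 in cluster 6, 1.79 in cluster 4, 1.67 in cluster 7, 1.35 in cluster 8, 1.27 in cluster 1 and 1.04 in cluster 2. In cluster 2 the groups overlapped, with sums of 6729, 5815 and 5797 in Control sh against 6177, 6372 and 6454 in VprBP sh. The sum of cluster 2 was carried in part by ZNF358, the member with the highest level per kilobase in both groups, at 834 normalized counts per kilobase in Control sh against 726 in VprBP sh, which was not called (log2 fold change −0.20, SE 0.17). It had 2147, 1574 and 1490 normalized counts in Control sh against 1168, 1658 and 1711 in VprBP sh, so that replicate 1 was the extreme sample of each group, in opposite directions.

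**Figure D5:**
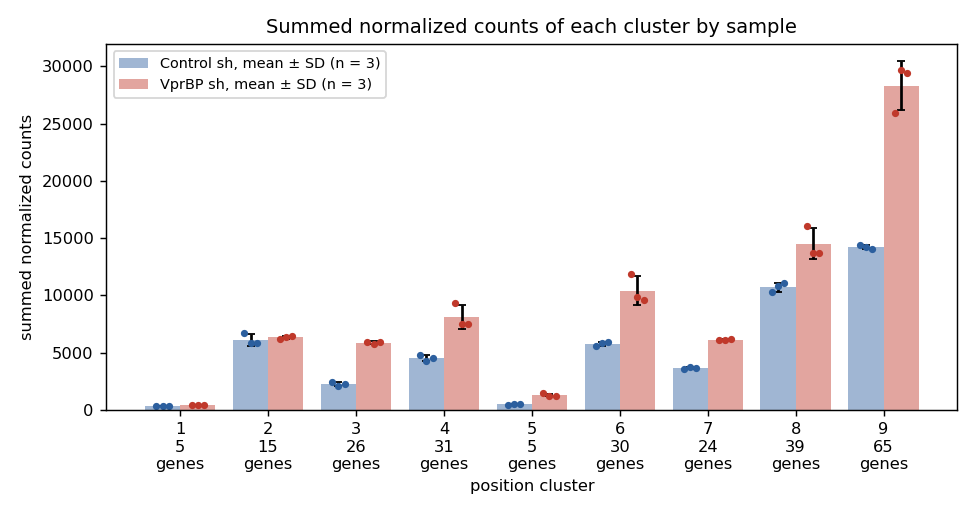
Summed normalized counts (vertical) of the members of each of the 9 position clusters (horizontal) in Control sh and VprBP sh. Bars are means, error bars SDs (n = 3) and points samples, and the samples of the groups are separate in every cluster except cluster 2.

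The member with the highest level in each cluster was not always one that rose. ZNF791 of cluster 3 (log2 fold change 1.07, SE 0.12), ZNF91 of cluster 4, ZNF302 of cluster 5 (1.58, SE 0.16), ZNF428 of cluster 7 (1.80, SE 0.14) and ZSCAN18 of cluster 9 were called higher. The call of ZNF791 was lost with TMM factors (0.97), with DESeq2 (0.95), without Control sh replicate 1 (0.99) and without replicate 1 of both groups (0.96), each just under 2-fold. ZNF302 had 162, 243 and 194 normalized counts in Control sh against 682, 564 and 547 in VprBP sh. ZNF146 of cluster 6, which consists of fingers alone without a KRAB domain, had 1989, 2121 and 2088 in Control sh against 2894, 2290 and 2205 in VprBP sh and was not called (0.25, SE 0.11, adjusted p = 0.0586 by edgeR). ZNF468 of cluster 8 had 766 ± 119 in Control sh against 948 ± 131 in VprBP sh (0.30, SE 0.14), and ZNF554 of cluster 1 had 115 ± 20.9 and 168 ± 40.0 (0.55, SE 0.22, adjusted p = 0.043), neither of them past 2-fold. The adjusted p of ZNF554 ranged from 4.19e-05 to 0.276 over the alternatives and was above 0.05 in 9 of them, among them TMM factors (0.0895), DESeq2 (0.118), the replicate block (0.112) and the fits without Control sh replicate 2 (0.136) or 3 (0.131) or VprBP sh replicate 2 (0.152) or 3 (0.137).

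The clusters also differed in their upstream sequences. The pentamer CCAAT, searched on both strands, stood in the 250 bases upstream of 50% of the members with a window and of 32.0% of all RefSeq windows. It was found in 27 of 27 windows of cluster 4, in 23 of 25 of cluster 3 and in 32 of 59 of cluster 9, but in 4 of 27 of cluster 6, 4 of 20 of cluster 7 and 8 of 32 of cluster 8. Cluster 1 had CCAAT in 5 of 5 windows, cluster 2 in 3 of 13 and cluster 5 in 2 of 4. The median log2 fold changes of clusters 1 to 9, in order, were 0.38, 0.13, 1.34, 1.01, 1.61, 1.08, 0.82, 0.30 and 1.03. A relation between CCAAT and the fold change was not tested. The median number of CG dinucleotides was 8 in cluster 4 and 12 in cluster 3, against 18 in cluster 6 and 19 in cluster 9. TATAAA was found in 2.27% of member windows and 10.7% of all windows, and CACGTG in 4.09% and 6.34%. A match describes letters in the window and does not show a bound factor.

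Genes of the KRAB silencing machinery were examined as a list of 24, all of which were tested. TRIM28 had 11831 ± 874 normalized counts in Control sh against 12787 ± 917 in VprBP sh (log2 fold change 0.11, SE 0.09, adjusted p = 0.278 by edgeR), and SETDB1 had 944 ± 26.9 and 927 ± 41.9 (−0.03, SE 0.09). Of the list, 4 were called higher, 1 lower and 19 were not called, with a median of 0.23, where 24.5% of all genes tested were called higher and 22.0% lower with a median of 0.08, so that the list had no larger share of calls than all genes. The 4 were DNMT1, the maintenance DNA methyltransferase (5151 ± 195 to 23363 ± 404, 2.18, SE 0.08), CBX5, which encodes HP1 alpha (1.40, SE 0.10), DAXX, a histone H3.3 chaperone (1.11, SE 0.08), and EHMT2, an H3K9 methyltransferase also known as G9a (1.00, SE 0.08). The calls of DAXX and EHMT2 sat near the 2-fold limit: with DESeq2 neither was called (0.98 and 0.88), and EHMT2 also lost its call with TMM factors (0.91), without a filter on low counts (0.98), with replicates 2 and 3 summed (0.96) and without Control sh replicate 1 (0.997), VprBP sh replicate 2 (0.95) or VprBP sh replicate 3 (0.98). The gene called lower was ZFP57, a KRAB protein of imprinted regions, at 18.8 ± 0.509 and 2.37 ± 2.07 normalized counts. The other HP1 genes moved in opposite directions below 2-fold, CBX1 at −0.84 (SE 0.09) and CBX3 at 0.90 (SE 0.14). Among the subunits of the HUSH silencing complex, MPHOSPH8 was at 0.57 (SE 0.13), PPHLN1 at −0.53 (SE 0.11) and TASOR at −0.17 (SE 0.09).

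Some member values rest on shared sequence. In the annotation used here (GENCODE 44), 153 of the 250 members share exonic bases with another gene, 92 of them on the same strand and 87 on the opposite strand. ZNF20, ZNF625 and the readthrough row ZNF625-ZNF20 divide reads: ZNF20 had 33.7 ± 11.4 normalized counts in Control sh against 107 ± 38.4 in VprBP sh, ZNF625 15.4 ± 5.55 and 95.3 ± 8.997, and the readthrough row 61.8 ± 15.4 and 115 ± 29.1. ZNF709 had 49.9, 0.852 and 32.7 normalized counts in Control sh, with replicate 2 far below the others, against 143, 69.8 and 102 in VprBP sh. The values of these genes are uncertain for that reason, as is the value of ZNF781, of whose exonic bases 97.2% are shared with an overlapping lncRNA row of the same name.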

How the data were processed

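RNA was measured in 3 Control sh and 3 VprBP sh samples. Per the methods of the study, single-end reads of 50 bases were aligned to hg38 (GENCODE 29) with STAR 2.6.1d and quantified per gene, with no tool named for that step (the processing notes name Partek), and the authors deposited estimated counts per gene, not normalized and partly fractional. The labels name a SMARTER kit and the methods a stranded KAPA kit. Columns of samples not described in the labels numbered 0.

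Counts were rounded and all genes were fitted together with edgeR 4.0.16 (R 4.3.3), using upper quartile factors (quantile 0.75), filterByExpr with a minimum of 10 counts and the quasi-likelihood test. Genes were called at a Benjamini-Hochberg adjusted p under 0.05 and a fold change over 2. Standard errors (SE) were obtained from log2 fold changes and the F statistics of their tests. The fit was tested on simulated data. With 3 samples against 3, an exact permutation test of a single gene cannot go below p = 0.1, and depth limits the low genes most.

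Alternatives were TMM factors, library size alone, DESeq2 1.42.0, limma-voom (limma 3.58.1), other filters, a replicate block and leaving out samples. The same replicate numbers did not pair the samples. Replicates 2 and 3 of each group lay closer to each other than to replicate 1 (chi-square per degree of freedom 2.50 and 2.36, against 17.6 to 29.1) and were kept as separate samples.

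The members and lists were chosen with earlier results of these data known. The genes named were DCAF1, the members near 0 counts in a group, up to 10 of the largest increases and of the largest decreases among called members at an average of 100 or more normalized counts and without overlap between groups (10 and 4 genes met this), the 5 most equal members at that level, the top member of each cluster and of each name prefix, and the cofactor and marker lists. Members with known roles were named after their values were seen. Exons came from GENCODE 44, in which 244 of the 250 members had the same coordinates, and upstream windows from RefSeq. Protein features were not analysed here.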

Additional observations from a re-analysis of the deposited data

How the results depend on the processing

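The number of members called higher was 103 with TMM factors, 133 with library size alone, 96 with DESeq2, 112 with limma-voom, 110 without a filter on low counts, 94 of 225 tested with at least 10 counts in every sample, 110 with the replicate block and between 107 and 114 when each sample was left out. The share of all genes called higher moved as well, from 24.5% to 22.4% with TMM factors, 29.2% with library size alone, 21.7% with DESeq2 and 20.6% with at least 10 counts in every sample. All 96 members called higher by DESeq2 were among the 112. The number called lower was 7 in each of these except 9 without a filter and 4 with at least 10 counts in every sample, where fewer low genes were tested. At any fold change, 174 were higher and 15 lower. Without replicate 1 of both groups, chosen after seeing the data, 106 were higher and 8 lower, and with replicates 2 and 3 summed, also chosen then, 109 and 8. The median log2 fold change of the members was 1.12 with library size alone, and 0.84 to 0.92 when each sample was left out. No replicate pairing was found (correlations of −0.145, −0.029 and −0.106), and the replicate block reversed no named gene.

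DCAF1 was at −0.37 with library size alone (adjusted p = 0.0851) and at −0.46 with replicates 2 and 3 summed (adjusted p = 0.0839), over a range of adjusted p from 4.69e-08 to 0.0851. Cofactors called higher were 2 with DESeq2, and cofactors called lower 0 with at least 10 counts in every sample (edgeR), where ZFP57 was not tested. Members near 0 counts in Control sh numbered 9 when a mean of at least 10 or of at least 30 was asked of the other group, and in VprBP sh 1 in both cases. A gap of 0.5 Mb gave 11 clusters and a gap of 2 Mb gave 5. Among 30 named genes, 430 of the alternative values stayed on the same side of an adjusted p of 0.05. Some of these changed sign near 0, such as ZNF317 (0.18 with library size alone) and ZNF792 (−0.08 with TMM factors). Another 9 (all of ZNF554) lost and 5 gained an adjusted p under 0.05, and 1 reversed its sign with an adjusted p under 0.05. The call, which also needs a fold change over 2, was lost in 4 of 445 values, all of ZNF791. The reversed gene was ZNF358, which was at 0.14 (adjusted p = 0.0111) without replicate 1 of both groups. The cause was not tested. Depth limits what can be said of members with few counts, such as ZNF154.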

Other observations

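Noncoding rows of chromosome 19 that carry a ZNF name, antisense and divergent lncRNAs and pseudogenes, were not among the 250 genes. Of 36 such rows, 27 were tested, 12 were called higher in VprBP sh and 2 lower, and the median log2 fold change was 0.80, where 24.5% of all genes tested were called higher and 22.0% lower, with a median of 0.08. ZNF667-AS1, which is antisense to ZNF667, had 25, 16 and 17 counts in Control sh against 576, 523 and 706 in VprBP sh (4.80, SE 0.21, adjusted p = 4.01e-08 by edgeR). ZNF571-AS1 had 6, 1 and 5 counts in Control sh against 142, 99 and 108 in VprBP sh (4.71, SE 0.47). ZNF790-AS1 had 16, 9 and 8 counts in Control sh against 167, 171 and 224 in VprBP sh (3.91, SE 0.28). Each of these rose without overlap between the groups.

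The rows called lower were the pseudogenes ZNF812P and ZNF826P. ZNF812P had 161, 167 and 192 counts in Control sh against 0 in each VprBP sh sample. ZNF826P had 66, 89 and 97 in Control sh against 0 in each VprBP sh sample. The pseudogene ZNF702P, with 485, 569 and 624 counts in Control sh against 421, 522 and 585 in VprBP sh, was not called (−0.28, SE 0.11). Reads of pseudogenes can be shared with their coding relatives, and without counting by strand, which the sources used here do not state, reads of an antisense row and its partner cannot be told apart.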
